A study of Mus musculus with 6 samples.

Results

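The genes of sterol and fatty acid synthesis were examined in MIN6 cells, an insulin-secreting line derived from a mouse insulinoma, with and without chronic exposure to epinephrine. The members are 36 genes found by symbol, a list drawn up with earlier results of these data known, out of 22298 genes in the expression table. Each of the 36 had 1 row, and each passed the filter on low counts. They comprise 5 regulators of the SREBP pathway, 18 enzymes of sterol synthesis (8 from acetyl-CoA to squalene and 10 from squalene to cholesterol), the sterol carrier gene Stard4, and 12 fatty acid genes (5 of acetyl-CoA supply and fatty acid synthesis, 3 of elongation and 4 of desaturation). RNA was sequenced from 3 control samples and from 3 samples labelled chronic epinephrine, a treatment described as 100 nM for 3 days and then 2 days of withdrawal. The day of RNA collection is not named. Both groups were the same cell line in RPMI medium with fetal bovine serum, no agent is listed for the controls, and no genetic change separates the groups. The study's methods describe its data in general as biological replicates, while the labels give no culture for each sample, so the p-values measure the spread between these samples.

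Cells make cholesterol from acetyl-CoA through mevalonate, isoprenoid diphosphates and squalene, and make fatty acids from the same acetyl-CoA through malonyl-CoA. SREBP-2 and SREBP-1, encoded by Srebf2 and Srebf1, are membrane-bound transcription factors that SCAP escorts from the endoplasmic reticulum to the Golgi when sterols are low, where they are cut and released to the nucleus. INSIG proteins hold SCAP back when sterols are plentiful, SREBP-2 mainly drives sterol genes, and SREBP-1c mainly drives fatty acid genes and responds to insulin and LXR. In beta cells, cholesterol is a component of the insulin granule membrane, and malonyl-CoA, the product of acetyl-CoA carboxylase, restrains fatty acid oxidation.

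Total expected counts were 15017065 to 18127171 per sample. Members spanned from 5 counts in a sample for Acacb to 74054 for Acly. Control 1 stood apart from the other libraries: across the tested genes its log2 CPM correlated with those of controls 2 and 3 at Pearson r = 0.979 and 0.978, whereas controls 2 and 3 correlated at 0.993 and the epinephrine samples at 0.992 to 0.993 with each other. Beta cell markers were present in every library, with 20 of 20 beta cell markers counted in all 6 samples and a summed level of 68585 CPM in control 1 against 80807 to 86174 CPM in the others. After epinephrine 3 of these 20 markers were called lower and 1 higher, where 0.612% of all genes were called lower and 2.02% higher. Controls 2 and 3 also held transcripts of hepatocytes, with 19 and 20 of 20 markers counted and summed levels of 93.6 and 223 CPM, against 9 or 10 markers and 13.4 to 16.0 CPM in the other 4 samples. Albumin (Alb) had 593 and 1315 counts in controls 2 and 3 and 3 to 8 counts elsewhere. Adipocyte markers summed to 73.1 to 81.4 CPM in controls and 96.3 to 103 CPM after epinephrine, mostly from lipoprotein lipase (Lpl), and the 2 that passed the count filter, Lpl and Pparg, were both called higher. Among the other adipocyte markers Lep was at 0 in every sample and Adipoq at 3 counts or fewer, while control 1 had 20 counts of Car3 and 17 of Fabp4, against 0 to 3 and 2 to 4 in the other samples, and 13 of 15 markers counted, against 7 to 10. Fibroblast markers summed to 67.2 to 88.4 CPM in controls and 58.4 to 79.2 CPM after epinephrine, mostly from Col6a3. Control 1 was the highest library for Col3a1 (118 counts against 0 to 27), Col1a2 (107 against 8 to 58) and Dcn (35 against 0 to 21), whereas Col1a1 was highest in epinephrine 1 and 2 (263 and 171 counts, against 3 to 69 elsewhere). Leukocyte markers summed to at most 6.28 CPM in controls and at least 8.66 CPM after epinephrine, with 1 called higher and Cd3g at 0 throughout. The level after epinephrine came mostly from Coro1a (4.03 to 6.61 CPM, against 2.57 to 3.13 in controls) and Cd68 (2.13 to 3.38 CPM, against 0.343 to 0.712). Csf1r overlapped between the groups, and Ptprc had at most 2 counts in any sample. The part of these libraries and transcripts in the results was not tested, and the main results that rest on control 1 are given with and without it. In bulk RNA, fewer cells of a type and less RNA per cell cannot be told apart.

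With all 6 samples, only Cyp51 of the 36 members passed an FDR of 0.05 in the quasi-likelihood test of edgeR, and it was higher after epinephrine, close to the threshold (FDR = 0.0477). Across all 12747 tested genes, 2.02% were called higher and 0.612% lower. No member was called lower, although 1 member was lower at an unadjusted p under 0.05, and DESeq2 also called 0 members lower and called 2 higher (Cyp51 and Fdps), against 3.09% of genes higher and 1.98% lower by that tool. At an unadjusted p under 0.05 there were 9 higher members, where 9.19% of all genes reached that p in the higher direction and 7.91% in the lower. The fitted difference was above 0 for 23 members and below 0 for 13, where it was above 0 for 49.5% of all genes, with a median log2 fold change of 0.08 against -0.0023 over all tested genes. All epinephrine samples lay above all controls for 10 members and below them for 3, where 14.3% and 13% of all genes separated in those directions.

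**Figure D1:**
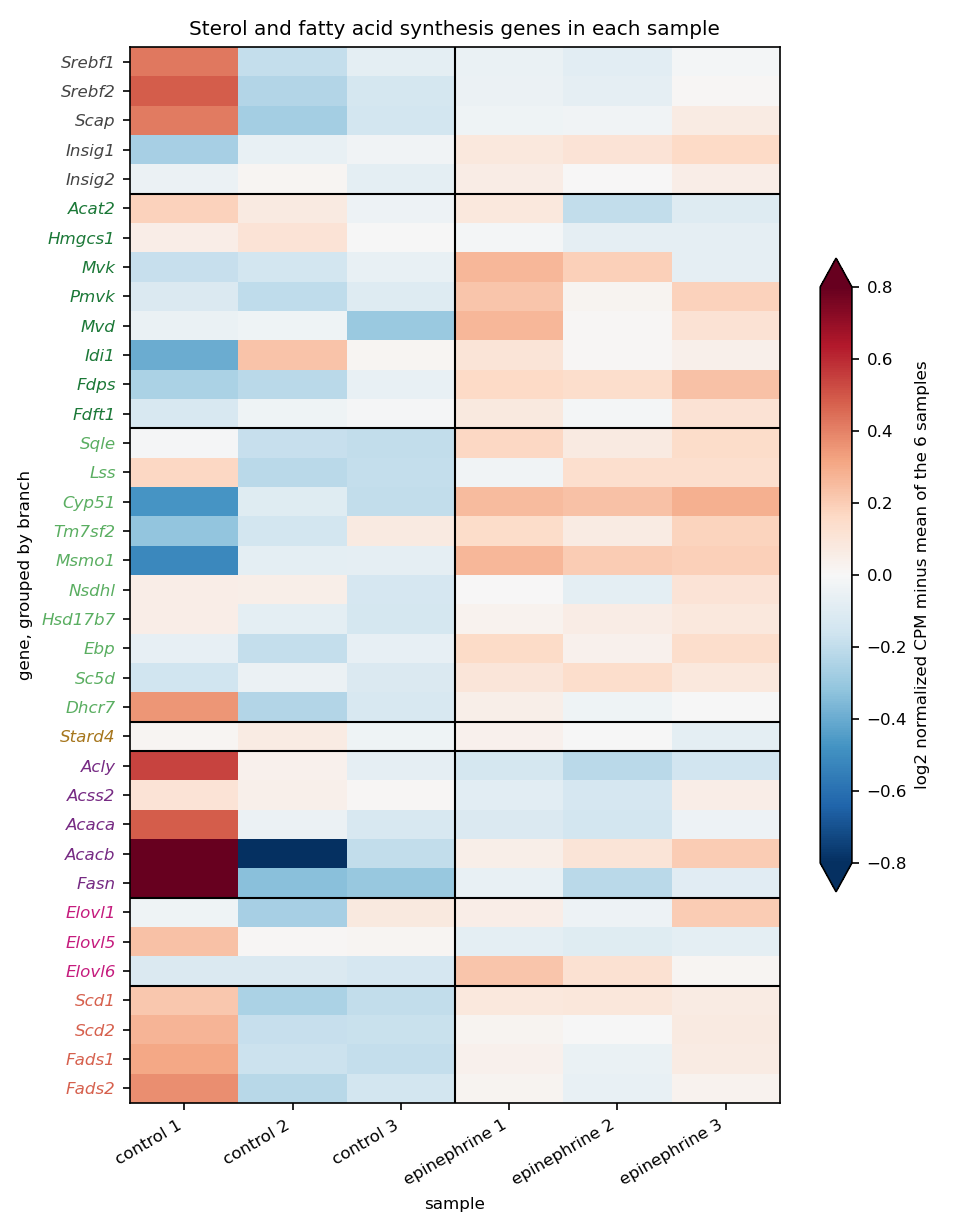
Heat map of the 36 members in the 6 samples, coloured by log2 of TMM-normalized CPM minus the gene's mean over the samples, with the genes grouped by branch and the colour scale saturating at 0.8 in either direction. Sterol enzymes are mostly higher in the 3 epinephrine columns, while most fatty acid genes are highest in the control 1 column.

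Of the 18 sterol enzymes, 15 were higher by fold change, with a median log2 fold change of 0.22, and the 7 that reached an unadjusted p under 0.05 were all higher, where 49.5% of all genes were above 0 and 9.19% were higher at that p. Of the 12 fatty acid members, 6 were higher and 6 lower, with a median of -0.0082. Control 1 was the highest of the 6 samples for 10 of the 12 fatty acid members and for 3 of the 18 sterol enzymes, where it was the highest for 33.2% of all genes. It was the lowest for 0 of the 12 fatty acid members and for 8 of the 18 sterol enzymes, against 34.8% of all genes.

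Without control 1, 16 members were called higher and 1, Acly, lower. The same fit called 12.1% of all genes higher and 9.46% lower, so that calls were more frequent over all genes as well, and the higher calls made up 44.4% of the members. DESeq2 without control 1 called 11 members higher and 1 lower, where it called 7.84% and 5.47% of genes. The sterol median hardly moved (0.21), and the fatty acid median became 0.19. The 2 controls that remain in this comparison are those with the hepatocyte transcripts.

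**Figure D2:**
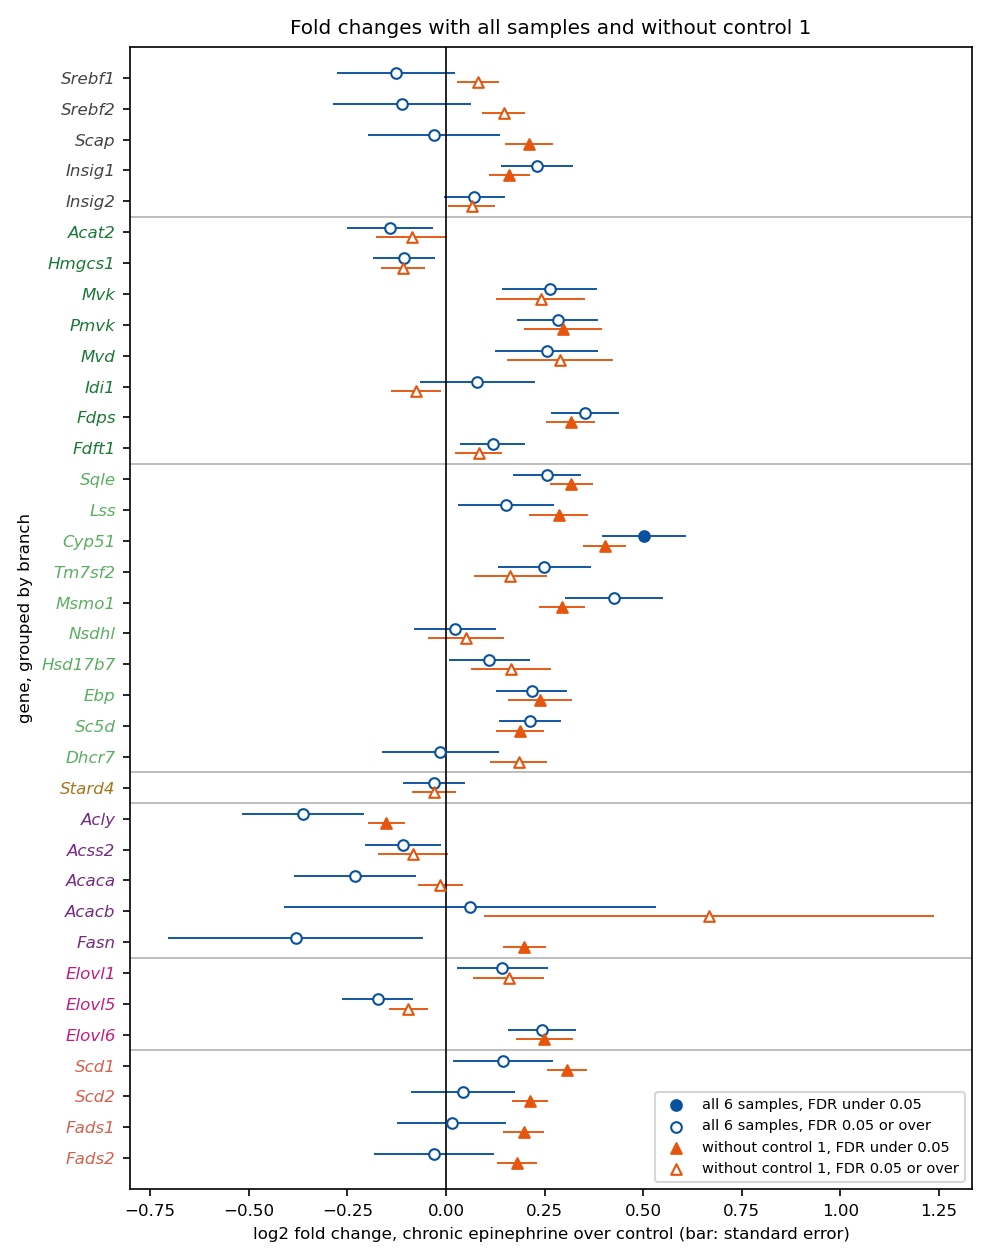
Log2 fold change of chronic epinephrine over control for each of the 36 members, with its standard error as bars, fitted with all 6 samples and again without control 1. Cyp51 has the largest value with all samples (0.50), and genes such as Fasn (-0.38 and 0.20) change sign between the fits.

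Upstream sequence is shown for Cyp51, the called member, for Insig1 and Hmgcs1, both textbook targets of SREBP, and for Fasn. Fasn is the fatty acid gene with the largest deviation of control 1 from controls 2 and 3. The 4 sequences were searched for letters through which SREBP and its partners are known to bind. They end at the base before the gene start in the GENCODE M21 annotation or before the RefSeq start, whichever comes first, and are RefSeq sequences of GRCm38.p6 read 5′ to 3′ on the gene's strand. Capitals mark matches, on either strand, to the sterol regulatory element core TCACNCCAC, the CCAAT box bound by NF-Y, the GC box GGGCGG bound by Sp1, and the E-box CACGTG.
Cyp51 (chr5:4104747-4104947, minus strand): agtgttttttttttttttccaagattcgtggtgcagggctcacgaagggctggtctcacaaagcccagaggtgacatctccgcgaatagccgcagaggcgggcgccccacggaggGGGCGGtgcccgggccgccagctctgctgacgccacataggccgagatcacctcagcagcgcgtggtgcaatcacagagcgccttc
Insig1 (chr5:28071162-28071362, plus strand): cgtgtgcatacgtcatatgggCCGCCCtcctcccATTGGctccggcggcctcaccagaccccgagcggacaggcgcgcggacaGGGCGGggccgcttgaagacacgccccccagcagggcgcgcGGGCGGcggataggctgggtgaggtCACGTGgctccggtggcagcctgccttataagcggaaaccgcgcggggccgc
Hmgcs1 (chr13:119690101-119690350, plus strand): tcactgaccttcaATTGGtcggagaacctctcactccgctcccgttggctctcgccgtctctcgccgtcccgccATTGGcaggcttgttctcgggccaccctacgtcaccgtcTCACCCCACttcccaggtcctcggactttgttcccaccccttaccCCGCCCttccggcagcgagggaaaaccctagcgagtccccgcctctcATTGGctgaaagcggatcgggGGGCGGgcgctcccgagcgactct
Fasn (chr11:120824548-120824797, minus strand): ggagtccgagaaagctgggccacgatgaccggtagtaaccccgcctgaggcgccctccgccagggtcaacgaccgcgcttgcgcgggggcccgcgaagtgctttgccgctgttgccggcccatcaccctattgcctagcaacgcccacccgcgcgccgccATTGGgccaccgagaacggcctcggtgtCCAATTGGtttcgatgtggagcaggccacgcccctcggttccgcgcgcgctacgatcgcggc
The stretch of Cyp51 holds 1 GC box. That of Insig1 holds 1 CCAAT box, 3 GC boxes and 1 E-box. That of Hmgcs1 holds the sterol regulatory element core once, with 3 CCAAT boxes and 2 GC boxes, and that of Fasn holds 3 CCAAT boxes, of which a neighbouring pair, on opposite strands, overlaps.

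Promoter sequence was found for 29 of the 36 members and for 27025 genes in all. None was available for Sqle, Fdps, Fdft1, Scd1, Scd2, Fads1 and Stard4, so these members were not searched. In the 250 bases before the start, the CCAAT letters were found in 23 of the 29 members (79.3%) against 37.5% of all genes, and GGGCGG likewise in 23 (79.3%) against 35.4%. CACGTG was found in 6 members (20.7%) against 6.86% of genes. The sterol regulatory element core was found in Hmgcs1 alone (3.45%) against 1.22% of genes. A match is a description of letters and not a bound site. The 27025 genes were not limited to genes expressed here, whereas every member passed the filter on low counts. Shares over the tested genes alone were not computed, so the 2 sets are unlike in expression. The shares are over all 250 bases, while the stretches shown for Cyp51 and Insig1 are 201 bases long. Cyp51, whose CCAAT letters lie outside the stretch shown, is therefore among the 23.

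The steps from squalene to cholesterol contained the called gene. Of the 10 enzymes, 9 had a positive fold change (49.5% of all genes), 5 reached an unadjusted p under 0.05, all higher (9.19% of all genes), and 5 had all epinephrine samples above all controls (14.3% of all genes), with a median log2 fold change of 0.22. Cyp51 encodes lanosterol 14-alpha-demethylase, the cytochrome P450 that removes a methyl group from lanosterol, and lies on chromosome 5 at 4081145 to 4104746 on the minus strand of GRCm38 (ENSMUSG00000001467). Its level was 86.3, 112 and 104 CPM in controls 1 to 3 and 142, 140 and 145 CPM in epinephrine samples 1 to 3. Every epinephrine sample lay above every control, with control 1 the lowest. The group means were 101 ± 13 and 143 ± 2.62 CPM (SD, n = 3 each), a log2 fold change of 0.50 with a standard error of 0.11 (edgeR FDR = 0.0477).

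On the length-scaled FPKM of the deposited table, Cyp51 was at 25.8 ± 2.96 in controls and 35.9 ± 0.781 after epinephrine (SD, n = 3 each). Without control 1 its log2 fold change was 0.40 (edgeR FDR = 2.92e-06). Over the 6 fits that each leave out 1 sample the log2 fold change was 0.40 to 0.58, the FDR reached 0.247 at its highest, and only the fit without control 1 kept the call. The call was also lost, at a similar log2 fold change, with upper quartile scaling (0.50, edgeR FDR = 0.0577), library size only (0.48, edgeR FDR = 0.0519), limma on log2 FPKM with 1 or 0.1 added (0.47 and 0.48, limma FDR = 0.0572 and 0.0576) and the replicate block (0.51, edgeR FDR = 0.0975). Of the gene's 50-base windows, 2.77% also occur elsewhere in the annotated transcripts, and exons of Akap9 overlap it on the other strand, whose reads could not be separated if the counting ignored strand.

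Msmo1 and Sqle, whose values are given for each sample because they separated the groups, were chosen after their values were seen. Msmo1, the methylsterol monooxygenase that acts after Cyp51, was at 53.0, 71.7 and 72.1 CPM in controls and 91.1, 87.0 and 86.3 CPM after epinephrine. The groups did not overlap, and control 1 was again the lowest. Its log2 fold change was 0.43 with a standard error of 0.12 (edgeR FDR = 0.124), and 0.29 without control 1 (FDR = 0.000393). Sqle encodes squalene epoxidase, a rate-limiting enzyme that adds oxygen to squalene. It was at 128, 114 and 113 CPM in controls and 145, 136 and 143 CPM after epinephrine. Here control 1 was the highest control, and the groups still did not overlap. The log2 fold change was 0.26 with a standard error of 0.09 (edgeR FDR = 0.182), and 0.32 without control 1 (FDR = 7.68e-05).

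The sterol isomerase gene Ebp (log2 fold change 0.22, edgeR FDR = 0.266) and the desaturase gene Sc5d (0.21, FDR = 0.209) also had epinephrine samples above all controls and did not pass with all samples. Lss, which encodes lanosterol synthase, ran from 33.0 to 43.0 CPM in controls and from 37.6 to 42.0 CPM after epinephrine, so that its groups overlapped. Without control 1 it was called higher by edgeR (log2 fold change 0.29, FDR = 0.00603), as were Ebp and Sc5d (FDR = 0.0369 and 0.0260). DESeq2 without control 1 did not call Ebp (0.24, FDR = 0.187) or Sc5d (0.19, FDR = 0.118). The sterol reductase gene Tm7sf2, lowest in control 1, had a log2 fold change of 0.25 with all samples and 0.16 without control 1, and the demethylation and ketoreductase genes Nsdhl and Hsd17b7 had 0.02 and 0.11. Dhcr7, encoding the reductase of the last step, was the only enzyme of this stretch with a value below 0 (-0.01), with 51.3 CPM in control 1 and 34.2 to 41.6 CPM in the other 5 samples. Without control 1 Dhcr7 turned to 0.18 (edgeR FDR = 0.0683), and all 10 enzymes were above 0.

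**Figure D3:**
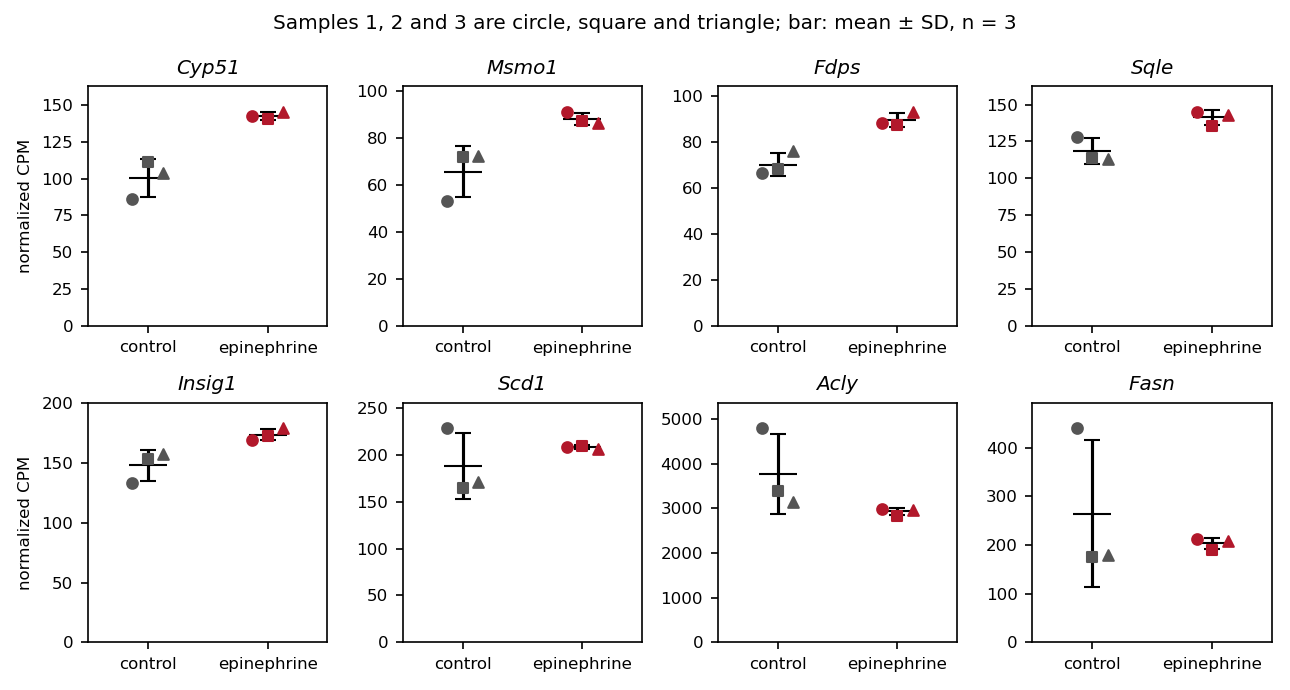
TMM-normalized CPM of selected members in each sample, with points for the 3 control and the 3 chronic epinephrine samples and the mean and SD of each group as bars. Cyp51 runs from 86.3 to 112 in controls and from 140 to 145 after epinephrine, while Fasn has control 1 at 440 and the other 5 samples between 175 and 212.

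Between acetyl-CoA and squalene, no enzyme passed with all samples in edgeR, and 2 of the 8, Fdps and Pmvk, reached an unadjusted p under 0.05, both higher (9.19% of all genes). Fdps alone was called by DESeq2. The median log2 fold change of these 8 enzymes was 0.19, with 6 higher and 2 lower, where 49.5% of all genes were above 0. Fdps encodes farnesyl diphosphate synthase, which makes the isoprenoid shared by sterols, dolichol, ubiquinone and prenylated proteins. It was at 66.3, 68.0 and 75.8 CPM in controls and 88.3, 87.2 and 93.0 CPM after epinephrine. Every epinephrine sample lay above every control, and control 1 was close to control 2. The group means were 70.0 ± 5.09 and 89.5 ± 3.10 CPM (SD, n = 3 each), a log2 fold change of 0.35 with a standard error of 0.09 (edgeR FDR = 0.0795, DESeq2 FDR = 0.0135).

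Without control 1 Fdps was called higher at a log2 fold change of 0.32 (edgeR FDR = 0.000354). Of its 50-base windows, 26.2% also occur in other annotated genes, so that its count could be shared with near-identical copies. The mevalonate pathway kinases Mvk and Pmvk, the decarboxylase Mvd and the isomerase Idi1 had log2 fold changes of 0.26, 0.28, 0.26 and 0.08. Pmvk and Mvd had epinephrine samples above all controls, and Pmvk was called higher by edgeR without control 1 (log2 fold change 0.30, FDR = 0.0310). DESeq2 without control 1 did not call Pmvk (0.29, FDR = 0.196). Idi1 had its lowest sample in control 1 (58.3 CPM) and its highest in control 2 (89.9 CPM), and changed sign without control 1 (-0.08). Fdft1, which joins farnesyl units into squalene, had 0.12. Of the 50-base windows of Idi1 and Fdft1, 25.3% and 26.5% also occur in other annotated genes, for Fdft1 including Ctsb, whose exons overlap it on the other strand, so that both counts are uncertain.

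Hmgcs1 and Acat2, which act at the entry of the pathway, did not pass. Hmgcs1 encodes the cytosolic HMG-CoA synthase. Among the 29 members with promoter sequence, it alone had the exact letters of the sterol regulatory element core in the 250 bases searched. It was at 113, 118 and 109 CPM in controls and 108, 104 and 104 CPM after epinephrine. These values by sample were not among those planned. The epinephrine samples lay below the controls, the nearest pair being control 3 and epinephrine 1, and the log2 fold change was -0.11 with a standard error of 0.08 (edgeR FDR = 0.533). Leaving out control 1 gave -0.11 (FDR = 0.177). Acat2, the cytosolic acetoacetyl-CoA thiolase, had -0.14, and 39.1% of its 50-base windows also occur in other genes, among them Acat3. The sterol carrier Stard4 was at 123, 127 and 119 CPM in controls and 124, 121 and 115 CPM after epinephrine, overlapping groups with a log2 fold change of -0.03 (FDR = 0.880).

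None of the 5 regulators passed with all 6 samples in edgeR or in DESeq2, and 1 of them, Insig1, reached an unadjusted p under 0.05, higher. Over all genes, 9.19% were higher at that p. EdgeR called 2.02% of all genes higher and 0.612% lower, and DESeq2 3.09% and 1.98%. Insig1 encodes the sterol-regulated retention protein of SCAP and is itself a target of SREBP. It was at 133, 153 and 157 CPM in controls and 169, 172 and 179 CPM after epinephrine. The groups did not overlap, with control 1 the lowest sample. The means were 148 ± 13.1 and 173 ± 4.87 CPM (SD, n = 3 each), a log2 fold change of 0.23 with a standard error of 0.09 (edgeR FDR = 0.244), and 0.16 without control 1 (FDR = 0.0277). Insig2, the second INSIG gene, had overlapping groups at 63.6 to 68.0 and 67.2 to 69.9 CPM.

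The transcription factor genes and their escort shared a high value in control 1. Srebf1 was at 281 CPM there and at 184 to 208 CPM in the other 5 samples, with a log2 fold change of -0.13 (edgeR FDR = 0.719) that became 0.08 without control 1 (FDR = 0.298). Srebf2 was at 207 CPM in control 1 and 126 to 149 CPM elsewhere, with -0.11 (FDR = 0.786) and 0.15 (FDR = 0.0543). Scap was at 103 CPM in control 1 and 63.9 to 80.8 CPM elsewhere, with -0.03 (FDR = 0.947) and 0.21 (FDR = 0.0139). DESeq2 without control 1 did not call Scap (0.21, FDR = 0.0605). The direction for all 3 genes therefore turned with the choice of control libraries. The Srebf1 row is a sum over transcripts, so that SREBP-1a and SREBP-1c were not separated.

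Acetyl-CoA supply and fatty acid synthesis held the members with the largest spread among controls. In all 5 genes control 1 was the highest sample (33.2% of all genes), no gene passed in edgeR or DESeq2 with all samples, and the median log2 fold change was -0.23. Only Acly reached an unadjusted p under 0.05, lower, where 7.91% of all genes were lower at that p. Acly encodes ATP citrate lyase, which releases acetyl-CoA from citrate in the cytosol, and was the most abundant member by length-scaled level, at a mean of 896 FPKM in controls and 676 FPKM after epinephrine. It was at 4794, 3380 and 3133 CPM in controls and 2988, 2839 and 2969 CPM after epinephrine. Every epinephrine sample lay below every control, with control 1 far above the others. The means were 3769 ± 896 and 2932 ± 81.1 CPM (SD, n = 3 each), a log2 fold change of -0.36 with a standard error of 0.15 (edgeR FDR = 0.279).

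Without control 1 Acly was called lower, at a log2 fold change of -0.15 (edgeR FDR = 0.0228), and it was the only member called lower. Over the fits that leave out 1 sample its value ranged from -0.48 to -0.15. Fasn, the fatty acid synthase gene, was chosen for its values by sample after they were seen. It was at 440, 175 and 179 CPM in controls and 212, 190 and 207 CPM after epinephrine. Control 1 was over the highest epinephrine sample, and controls 2 and 3 were below the lowest. The log2 fold change was -0.38 with a standard error of 0.32 (FDR = 0.597) and turned to 0.20 without control 1 (FDR = 0.00926).

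Acaca, the acetyl-CoA carboxylase of the cytosol, was at 142 CPM in control 1 and 91.2 to 98.2 CPM in the other 5 samples, and its log2 fold change moved from -0.23 to -0.01 without control 1 (edgeR FDR = 0.498 and 0.894), with 30.4% of its 50-base windows shared with other annotated genes. Acacb, the mitochondrial carboxylase isoform, was near the detection limit at 5 to 16 counts per sample. Acss2, which activates acetate, had a log2 fold change of -0.11 with overlapping groups.

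Among the elongases, Elovl6, which extends palmitate to stearate, was at 38.6, 38.6 and 38.1 CPM in controls and 48.7, 45.6 and 42.2 CPM after epinephrine. Controls were within 1 CPM of each other, control 1 included, and every epinephrine sample was higher. The log2 fold change was 0.24 with a standard error of 0.09 (edgeR FDR = 0.198), and 0.25 without control 1 (FDR = 0.0129). DESeq2 without control 1 did not call Elovl6 (0.25, FDR = 0.0864). Elovl5, the elongase of polyunsaturated fatty acids, was lower in every epinephrine sample (196 to 199 CPM) than in every control (211 to 246 CPM), at -0.17 (FDR = 0.371) and -0.10 without control 1 (FDR = 0.180). Elovl1, which makes very long chains, had 0.14 with overlapping groups. None of the 3 passed with all samples in edgeR or DESeq2, and Elovl6 was the one that reached an unadjusted p under 0.05, higher. Over all genes, 9.19% were higher at that p. All epinephrine samples lay above all controls for 14.3% of all genes and below them for 13%.

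All 4 desaturase genes were highest in control 1 (33.2% of all genes), with epinephrine values between it and controls 2 and 3. Scd1 and Scd2 encode stearoyl-CoA desaturases, which make oleate and palmitoleate, and Scd1 was at 228, 165 and 171 CPM in controls and 208, 210 and 206 CPM after epinephrine. The epinephrine samples lay close together, above controls 2 and 3 and below control 1. With all samples the log2 fold change was 0.14 with a standard error of 0.13 (edgeR FDR = 0.611), and without control 1 it was 0.31 (FDR = 5.45e-05). Scd2, chosen for display after its values were seen, was at 4336, 3152 and 3169 CPM in controls and 3641, 3580 and 3764 CPM after epinephrine. As for Scd1, the epinephrine samples lay above controls 2 and 3 and below control 1, at a level per length of 660 ± 138 and 668 ± 19.6 FPKM (SD, n = 3 each), against 39.8 and 45.7 FPKM for Scd1.

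Fads1 and Fads2, the delta-5 and delta-6 desaturases of polyunsaturated fatty acids, had log2 fold changes of 0.01 and -0.03 with all samples. Without control 1 they were 0.20 and 0.18 (edgeR FDR = 0.00557 and 0.0116), and Scd2 was at 0.21 (FDR = 0.00113). So 0 of the 4 desaturases were called by edgeR or DESeq2 with all samples. None of them reached an unadjusted p under 0.05, where 9.19% of all genes were higher and 7.91% lower at that p. Without control 1, 4 of 4 were called higher, against 12.1% of all genes. Shared sequence was small here, at 4.56% of the 50-base windows of Scd1 and 3.97% of those of Scd2.

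The deviation of control 1 moved with the GC content and the length of transcripts. Taking log2 of control 1 minus log2 of the mean of controls 2 and 3, with 0.3 CPM added, the deviation correlated with GC content across 12742 genes at Pearson r = 0.416 and Spearman rho = 0.435, and with log2 transcript length at r = 0.410. Across the 36 members the values were 0.580 and 0.540 for GC, and 0.550 for length. These correlations are across genes of the same libraries, and genes are not independent replicates. With the genes cut into 4 equal groups by GC content, from lowest to highest, the median deviation was -0.27, -0.03, 0.11 and 0.20, and that of the members was -0.0042, 0.18, 0.11 and 0.59. Fasn, with 57.9% GC and a transcript of 10050 bases, had the largest deviation (1.31), followed by Acacb (0.95) and Srebf2 (0.67). Idi1 (-0.52), Msmo1 (-0.44) and Cyp51 (-0.32), whose transcripts have 41.9%, 44.7% and 46.2% GC, were the lowest.

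**Figure D4:**
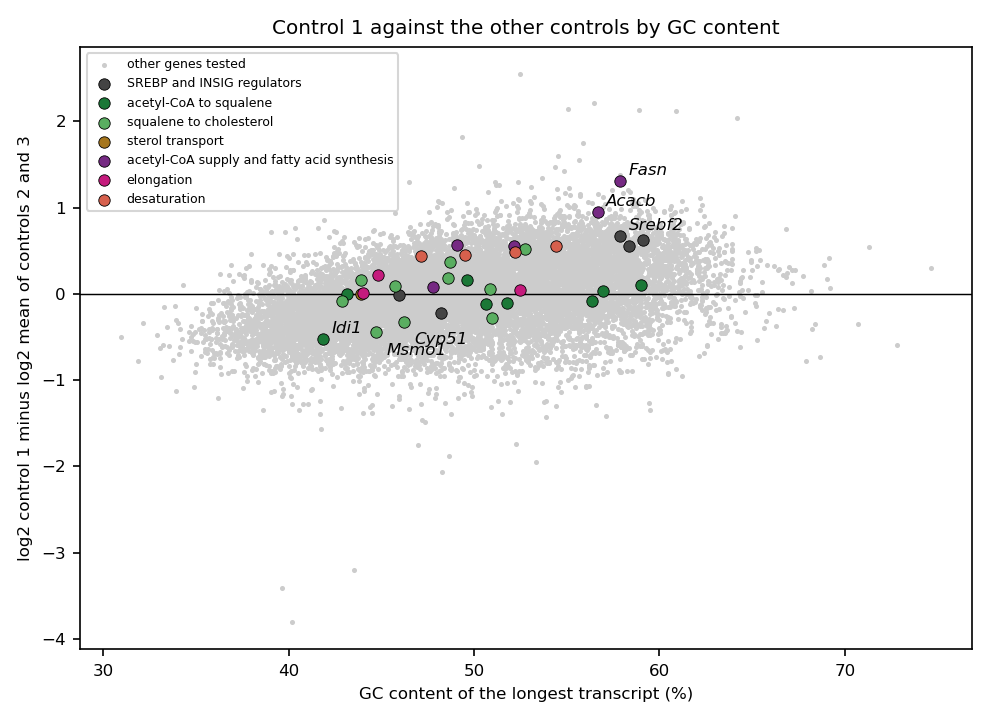
Deviation of control 1 from controls 2 and 3 on the log2 scale against the GC content of the longest transcript in percent, for all 12742 genes with both values and with the members marked. The cloud rises to the right (Pearson r = 0.416), and Fasn is the member farthest above 0, at 1.31.

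When transcript length and GC content entered the edgeR model as an offset fitted to each sample, chosen as an alternative after the data were seen, 6 members were called higher and 0 lower, where 5.51% of all genes were called higher and 4.92% lower. These were Cyp51 (log2 fold change 0.50, FDR = 0.00367), Msmo1 (0.38, FDR = 0.00663), Fdps (0.33, FDR = 0.0138), Sqle (0.28, FDR = 0.0138), Elovl6 (0.27, FDR = 0.0370) and Sc5d (0.21, FDR = 0.0430). All 6 were also called higher by edgeR without control 1, and 5 of them are sterol enzymes. Acly was at -0.30 (FDR = 0.0537), and Fasn at -0.15 (FDR = 0.596). At an unadjusted p under 0.05 this fit held 9 of the 36 members and 3304 of 12742 genes, which are similar shares.

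Neighbouring pathways were compared by counts over 7 lists. Over all genes, 49.5% were above 0, 9.19% were higher and 7.91% lower at an unadjusted p under 0.05, and DESeq2 called 3.09% higher and 1.98% lower. For genes of SREBP processing and export, 10 of 15 were higher and none passed with all 6 samples in edgeR. At an unadjusted p under 0.05 there were 2, both higher, and DESeq2 gave 1 call, higher. Sterol efflux, LXR and endosomal transport genes gave 6 higher of 16 tested and no call in edgeR. At an unadjusted p under 0.05 there were 4, of which 1 was higher and 3 lower, and DESeq2 gave 1 call, lower. The isoprenoid branch, which takes farnesyl units to dolichol and prenylated proteins, gave 13 higher of 19 and no call by edgeR or DESeq2. It had 1 at that p, higher. The remaining steps of elongation and mitochondrial fatty acid synthesis gave 11 higher of 16 and no call in edgeR. They had 3 at that p, all higher, and 1 call, higher, by DESeq2. Citrate export and NADPH supply gave 7 higher of 15 and no gene by edgeR, DESeq2 or unadjusted p. The median log2 fold changes of these lists were 0.05, -0.01, 0.03, 0.12 and -0.0025, beside -0.0023 over all genes. Without control 1, the SREBP processing list had 5 genes called higher and 0 lower, with a median of 0.12. The sterol efflux list, in which control 1 was the highest sample for 11 of the 16 genes, then had 11 of 16 higher, 4 called higher and 2 lower, and its median turned to 0.08. The isoprenoid list had 1 called higher and 1 lower (median 0.03), the elongation and mitochondrial list 4 and 0 (median 0.07), and the citrate and NADPH list 2 and 1 (median 0.01), where 12.1% of all genes were called higher and 9.46% lower.

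Acyl-CoA activation and glycerolipid synthesis had 17 higher of 32 and 1 call by edgeR, higher, where 49.5% of all genes were above 0 and 2.02% were called higher. At an unadjusted p under 0.05, 6 were higher and 1 lower, against 9.19% and 7.91% of all genes. DESeq2 called 2 higher and 0 lower, against 3.09% and 1.98% of all genes. Without control 1, 24 were higher, 4 were called higher and 1 lower, where 12.1% and 9.46% of all genes were called. Agpat4, an acyltransferase that makes phosphatidic acid, was at 24.3, 26.2 and 25.2 CPM in controls and 39.4, 37.5 and 41.7 CPM after epinephrine. The groups were far apart relative to their spread, and control 1 was like the other controls. Its log2 fold change was 0.65 with a standard error of 0.09 (edgeR FDR = 0.00868), and 3 of the 6 fits that leave out 1 sample kept the call.

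Fatty acid oxidation had 22 of 28 genes with a value below 0, a median log2 fold change of -0.13, 9 genes lower at an unadjusted p under 0.05 and 2 called lower, where 49.5% of all genes were above 0, 7.91% were lower at that p and 0.612% were called lower. Hadh, the mitochondrial short-chain hydroxyacyl-CoA dehydrogenase, was at 318, 358 and 349 CPM in controls and 218, 219 and 215 CPM after epinephrine. Hadh was lower in every epinephrine sample than in every control, and fell by 0.65 on the log2 scale with a standard error of 0.08 (edgeR FDR = 0.00647), a call that 3 of the 6 fits that leave out 1 sample kept. Acaa2, the mitochondrial thiolase of the last step, was at 7.64, 8.57 and 8.76 CPM in controls and 5.28, 4.93 and 4.69 CPM after epinephrine. The groups did not overlap here either, and Acaa2 fell by 0.74 on the log2 scale (standard error 0.13, FDR = 0.0247), although 1 of the 6 fits that leave out 1 sample kept the call. With all samples, DESeq2 called 2 oxidation genes lower and 0 higher, against 1.98% and 3.09% of all genes. Without control 1, 10 oxidation genes were called lower and 1 higher by edgeR, against 9.46% and 12.1% of all genes.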

How the data were processed

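RNA-seq was made from 6 samples of MIN6 cells, 3 control and 3 chronic epinephrine, grouped by their labels. The deposited table of the authors gives an expected count, not normalized between samples, and an FPKM value, scaled to transcript length and sample total, for each gene. The submitters' processing notes name GRCm38, and the aligner, counter and strandedness are not given in the sources used here. Of the expected counts, 8.34% were not whole, and all were rounded. In R 4.3.3, 12747 genes kept by filterByExpr were normalized by TMM and tested with the quasi-likelihood test of edgeR 4.0.16, without covariates, and p-values were adjusted over all of them by the Benjamini-Hochberg method (FDR, called when under 0.05). CPM values are counts scaled to the library size after TMM, and errors are SD over 3 samples or a standard error. That standard error was derived from the fit, as the absolute log2 fold change over the square root of the test's F statistic. A single gene's exact permutation test could not go below p = 0.1 with 3 samples per group. Members and lists were chosen with earlier results of these data known. Values in every sample were planned for members called in this test and for the member with the smallest p in each branch, and up to 3 called genes were named per list. Alternatives were RLE, upper quartile and library size scaling, DESeq2 1.42.0, no filter, at least 10 counts in every sample, limma 3.58.1 on log2(FPKM + 1) or log2(FPKM + 0.1), a replicate block and each sample left out. Others, chosen after seeing the data, combined leaving out control 1 with DESeq2 or RLE, or used an offset of natural splines with 4 degrees of freedom for transcript length and GC content. Positions, length, GC and 50-base windows came from GENCODE M21, in which 22255 of 22298 gene identifiers were found.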

Additional observations from a re-analysis of the deposited data

How the results depend on the processing

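The member count of 1 became 0 with upper quartile scaling, library size only and both limma fits, 2 with DESeq2, 6 with the length and GC offset, and 0 to 17 when 1 sample was left out (17 without control 1, 0 without any other sample). Where it was 0, an unadjusted p under 0.05 was reached by 10 members with upper quartile scaling (2198 of 12747 genes) and 9 with library size only (2243 genes). With limma it was reached by 7 members with 1 added (2026 genes) and 8 with 0.1 added (2025 genes). With a sample left out it was reached by 3 to 7 members (1377 to 2331 genes). Without control 1, DESeq2 gave 12 and RLE scaling 17. Over all genes, 335 calls became 327 with upper quartile scaling, 315 with library size only, and 262 and 259 with limma (1 and 0.1 added). They became 729 with DESeq2, 1329 with the offset and 47 to 2798 when 1 sample was left out (47 without epinephrine 1, 47 without epinephrine 2, 77 without epinephrine 3, 108 without control 2, 192 without control 3, 2798 without control 1). Without control 1 they were 1806 with DESeq2 and 2813 with RLE.

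The samples share replicate numbers, but deviations of same-numbered samples from their group means correlated across genes at 0.0502, 0.0677 and -0.0488, and were not treated as pairs. The replicate block gave 0 members and 178 genes, with 9 members and 1970 of 12747 genes at an unadjusted p under 0.05.

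The fatty acid median ran from -0.14 to 0.19 when 1 sample was left out, and was 0.19 with DESeq2 and 0.18 with RLE without control 1. The sterol median stayed at 0.19 to 0.23 in every setting. Signs turned for members not called with all samples. They turned for Nsdhl with library size only (-0.0043), limma (-0.0023 and -0.0024) and the offset (-0.077), for Fads1 with library size only (-0.016), for Dhcr7 with limma (0.010 and 0.011) and the block (0.0052), for Scap with the block (0.00077) and the offset (0.069), and for Srebf2 with the offset (0.0058). When 1 sample was left out, ranges that include 0 were -0.25 to 0.081 for Srebf1, -0.25 to 0.15 for Srebf2, -0.17 to 0.21 for Scap, -0.076 to 0.22 for Idi1, -0.14 to 0.18 for Dhcr7, -0.62 to 0.20 for Fasn, -0.15 to 0.18 for Fads2, -0.30 to 0.67 for Acacb, -0.044 to 0.21 for Scd2, -0.074 to 0.20 for Fads1, -0.035 to 0.07 for Nsdhl and -0.056 to 0.00041 for Stard4. Without control 1, DESeq2 and RLE gave 0.078 and 0.078 for Srebf1, 0.14 and 0.14 for Srebf2, 0.21 and 0.21 for Scap, -0.078 and -0.079 for Idi1, 0.18 and 0.18 for Dhcr7, 0.20 and 0.20 for Fasn, and 0.18 and 0.18 for Fads2. The cause was not tested, except that leaving out a sample leaves fewer samples. Counts of 5 to 16 limit what can be said of Acacb.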
